A study of Homo sapiens with 8 samples.

Results

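The genes described here were 43 members of the glycolytic pathway and of the transcriptional response to hypoxia, listed by symbol for their known function. All 43 symbols were found among the 23228 genes counted in BT-549 cells, a mesenchymal line of triple negative breast cancer (TNBC). The cells received the solvent DMSO (vehicle), EC359 at 100 nM, vorinostat at 10 µM, or EC359 and vorinostat together at the same doses, for 24 h, and RNA was sequenced from 2 libraries of each of the 4 groups. EC359 is an inhibitor of the leukemia inhibitory factor receptor (LIFR), and vorinostat (SAHA) is a histone deacetylase inhibitor (HDACi). The study asked whether blocking LIFR adds to the action of an HDACi. All groups came from 1 established cell line, and the labels do not say whether the 2 libraries of a group came from separate cultures, so the p-values measure the spread between libraries, which may be technical.

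Glycolysis splits glucose into pyruvate in the cytosol, and many tumour cells run it at a high rate and release its end product as lactate even when oxygen is present. Hypoxia-inducible factors (HIFs) are transcription factors made of an oxygen-sensitive alpha subunit, HIF1A or EPAS1 (HIF-2 alpha), and the partner ARNT. When oxygen is plentiful, prolyl hydroxylases of the EGLN family mark the alpha subunits for degradation, and when it is scarce HIF switches on glucose transporters, glycolytic enzymes, angiogenic factors and enzymes that modify collagen. The libraries measure mRNA, and neither HIF protein nor metabolic flux was measured here. In RNA from whole cultures, fewer cells with a transcript and less transcript per cell cannot be told apart.

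The 8 libraries held between 19069450 and 24759041 reads counted on genes. Levels are given as CPM, counts per 1000000 counts after scaling by the trimmed mean of M values (TMM), with the 2 libraries of a group in order. Of the 43 members, 42 passed the filter on low counts and were tested among 13694 genes. A gene passed the test where edgeR's quasi-likelihood F test gave an adjusted p under 0.01 (Benjamini-Hochberg, over all genes tested), and was called when its log2 fold change also exceeded 1 in either direction. The EC359 libraries stood furthest apart: for the members, log2 differences between replicate libraries had an SD of 0.505 with EC359, 0.263 with the combination, 0.212 with vehicle and 0.0985 with vorinostat. Among markers of the line, VIM lay between 2056 and 9438 CPM, ESR1, PGR and CDH1 reached at most 2.21 CPM, and EPCAM at most 4.27 CPM. The mesenchymal markers CDH2 and ZEB1 lay between 22.7 and 39.5 CPM and between 43.2 and 208 CPM. ERBB2 was at 96.1 and 102 CPM with vehicle and at most 15.8 CPM in each of the 4 libraries with vorinostat. The leukocyte and endothelial markers PTPRC and PECAM1 stayed at or below 0.708 CPM. The part of these shifts in ERBB2, VIM and ZEB1 in the results below was not tested.

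HIF binds DNA at a short core, ACGTG or GCGTG, and the promoters of the members were searched for it on both strands. A RefSeq window (build GRCh38.p14) of 250 bases before and 50 after the start site was matched for 37 of the 43 members. The core stood in 26 of these 37 windows, or 70.3% (exact 95% interval 53.0 to 84.1), against 48.4% of all 27305 windows in the same table. The ACGTG form alone stood in 40.5% of the member windows and 21.6% of all windows. Some matches lay within CACGTG, a palindrome that other factors also bind, and with those left out the shares were 67.6% and 45.2%. The base composition of member windows and all windows was not compared, and the members were listed for their known function. The shares are therefore a description, and their difference was not tested. The windows of 6 members whose mRNA is described below are shown, because they hold between 1 and 6 matches and their mRNAs went up in some cases and down in others. Each is written 5′ to 3′ on the gene's strand, with matches to the core on either strand (CACGT and CACGC being the core read from the opposite strand) in capitals. The windows are chr11:18394313-18394612 on the plus strand for LDHA, chr12:21657793-21658092 on the minus strand for LDHB, chr2:74833877-74834176 on the plus strand for HK2, chr17:28576846-28577145 on the minus strand for ALDOC, chr3:146161135-146161434 on the minus strand for PLOD2 and chr5:122078210-122078509 on the minus strand for LOX.
LDHA: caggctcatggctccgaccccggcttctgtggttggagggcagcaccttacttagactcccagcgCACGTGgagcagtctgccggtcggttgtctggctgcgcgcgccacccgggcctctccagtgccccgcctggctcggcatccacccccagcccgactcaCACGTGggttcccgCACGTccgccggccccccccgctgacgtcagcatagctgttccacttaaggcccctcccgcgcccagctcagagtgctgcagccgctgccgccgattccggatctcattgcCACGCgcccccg
LDHB: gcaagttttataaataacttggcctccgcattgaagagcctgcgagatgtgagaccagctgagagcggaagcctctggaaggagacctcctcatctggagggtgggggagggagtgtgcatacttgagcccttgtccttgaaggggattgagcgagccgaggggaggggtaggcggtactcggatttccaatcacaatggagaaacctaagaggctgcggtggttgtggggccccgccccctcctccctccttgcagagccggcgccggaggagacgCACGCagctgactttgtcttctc
HK2: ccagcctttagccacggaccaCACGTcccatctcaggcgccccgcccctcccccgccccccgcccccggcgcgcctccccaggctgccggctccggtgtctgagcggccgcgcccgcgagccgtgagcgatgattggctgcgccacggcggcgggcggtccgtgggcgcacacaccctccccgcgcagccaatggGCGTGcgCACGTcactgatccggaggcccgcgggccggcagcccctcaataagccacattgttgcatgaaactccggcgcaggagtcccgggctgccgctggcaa
ALDOC: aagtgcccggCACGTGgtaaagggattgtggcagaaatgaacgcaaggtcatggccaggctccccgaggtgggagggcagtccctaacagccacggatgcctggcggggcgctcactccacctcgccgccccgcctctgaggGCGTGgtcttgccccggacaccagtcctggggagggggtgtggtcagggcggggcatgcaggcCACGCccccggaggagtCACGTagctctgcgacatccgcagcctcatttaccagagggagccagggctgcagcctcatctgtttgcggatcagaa
PLOD2: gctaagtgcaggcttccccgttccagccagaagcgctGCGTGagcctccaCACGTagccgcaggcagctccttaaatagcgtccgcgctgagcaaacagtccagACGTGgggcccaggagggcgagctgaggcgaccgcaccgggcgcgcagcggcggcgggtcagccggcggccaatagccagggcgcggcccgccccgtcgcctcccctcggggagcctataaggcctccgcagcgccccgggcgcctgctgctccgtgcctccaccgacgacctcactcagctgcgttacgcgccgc
LOX: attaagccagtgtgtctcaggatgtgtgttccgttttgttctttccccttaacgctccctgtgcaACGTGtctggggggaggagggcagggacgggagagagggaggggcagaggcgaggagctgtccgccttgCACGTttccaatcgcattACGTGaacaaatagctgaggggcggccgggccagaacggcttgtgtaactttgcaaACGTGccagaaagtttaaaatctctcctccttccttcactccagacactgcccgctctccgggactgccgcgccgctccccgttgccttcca

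The LDHA window held 6 matches and that of LDHB 1, located 28 bases after its start site. The ALDOC window held 5 matches, the LOX window 4, and the HK2 and PLOD2 windows 3 each. A CACGTG was counted as 2 matches, 1 on each strand. The LDHA window held 2 such sites and the ALDOC window 1, so both show fewer marked stretches than matches. No match stood in the windows of EGLN3, PDK1, TPI1, HK1, PFKM, PFKP, P4HA2, PGAM1, ARNT, SLC16A3 and KDM4D. Of the members called in the combination against vehicle that had a window, 10 of 11 called higher and 2 of 4 called lower held the core, as did 13 of 21 that were not called. With vorinostat the core stood in 8 of 10 called higher, 2 of 2 called lower and 15 of 24 not called, and with EC359 in 2 of 3 called higher and 23 of 33 not called. A match describes the letters of the window and does not show that a factor was bound.

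With EC359 alone, 4 of the 42 members were called higher and 0 lower, while over all genes 1.94% were called higher and 1.72% lower. With vorinostat alone, 12 members were called higher and 2 lower, against 16.8% and 13.3% of all genes. With the combination, 14 were called higher and 4 lower, against 19.5% and 15.3% of all genes. Thus 33.3% of the members were called with vorinostat and 42.9% with the combination, beside 30.1% and 34.8% of all genes. The median log2 fold change of the members in the 3 comparisons was 0.25, 0.65 and 0.68, whereas that of all genes was -0.02, 0.03 and 0.07. Without the fold threshold, 7 members rose and 0 fell with EC359 by edgeR, 25 rose and 7 fell with vorinostat, and 24 rose and 8 fell with the combination. By the same rule 1071, 7130 and 7718 of all 13694 genes passed in the 3 comparisons. With EC359, 2 members were lower at an unadjusted p under 0.05 (ENO1 and PDK3), and DESeq2 called 5 higher and 0 lower.

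**Figure D1:**
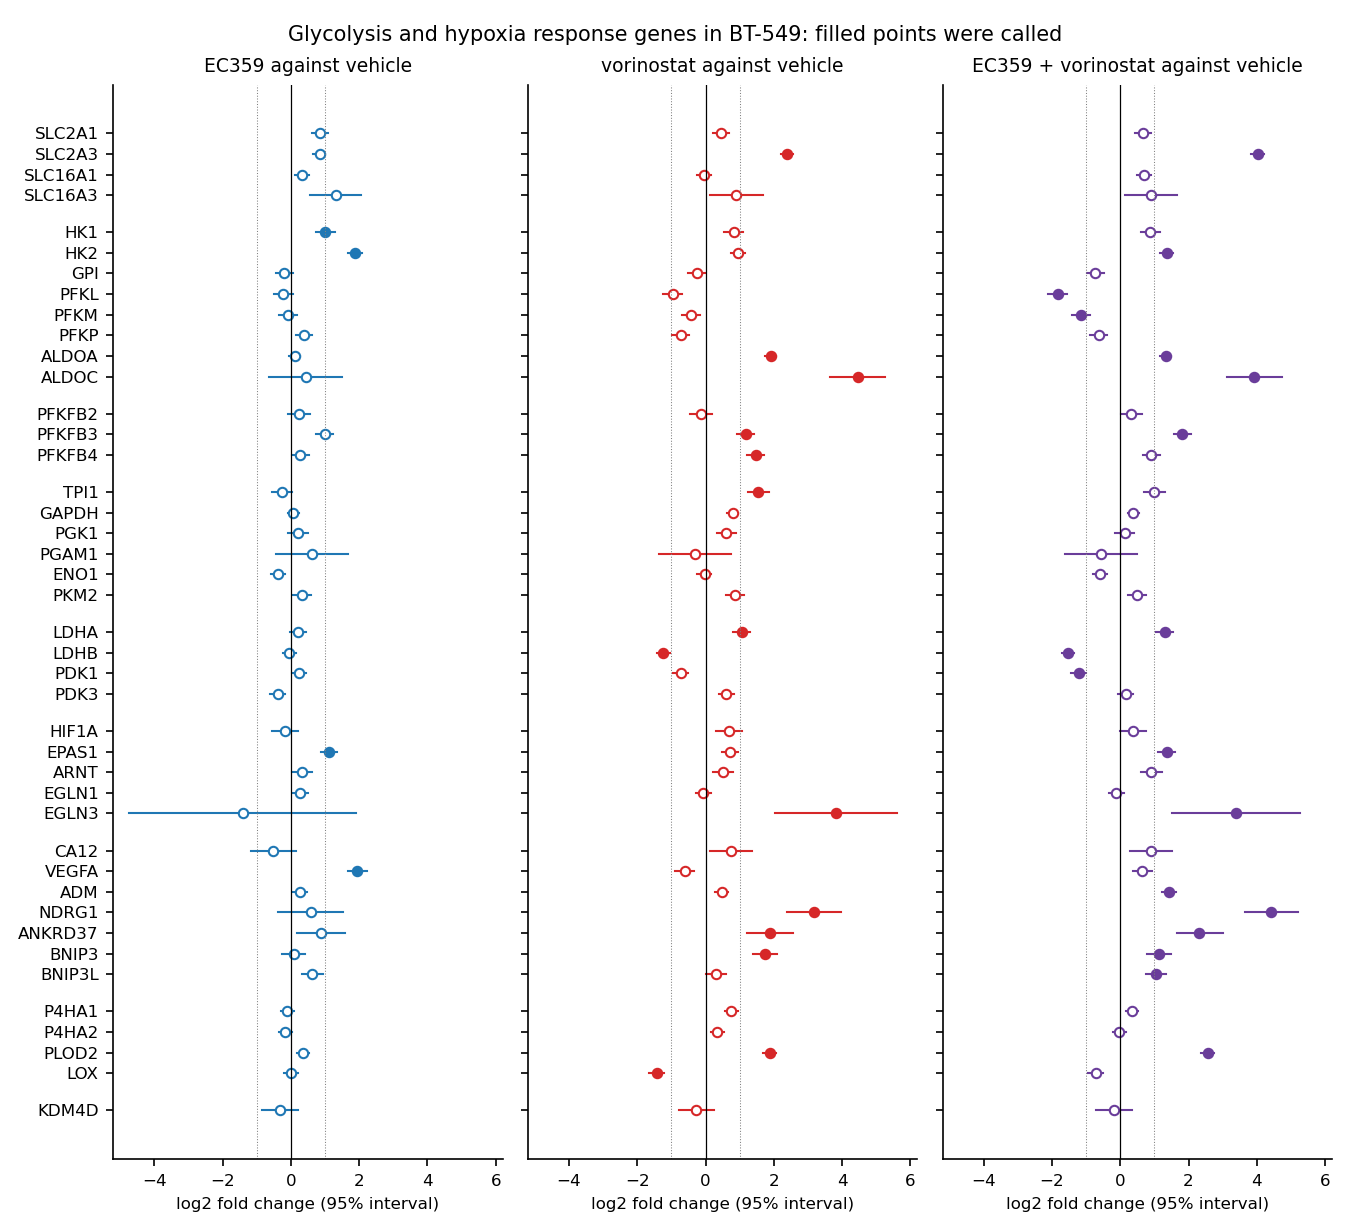
Log2 fold change against vehicle (horizontal axis) of the 42 members tested, in blocks by role, for EC359 (blue), vorinostat (red) and the combination (purple); bars are 95% intervals, filled points were called, and dotted lines mark a log2 fold change of 1 in either direction. With EC359 4 members were called, all higher, and the points spread to both sides of 0 in every panel.

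The glucose transporter SLC2A3 (GLUT3), a high-affinity carrier best known from neurons, showed the steepest rise among the transporters. Its levels were 95.1 and 96.3 CPM with vehicle, 166 and 176 with EC359, 511 and 493 with vorinostat, and 1555 and 1548 with the combination. The 4 groups did not overlap and each drug raised the level. The combination was 16.2-fold above vehicle (log2 fold change 4.02 ± 0.09 (SE), edgeR adjusted p = 1.15e-08), 3.09-fold above vorinostat and 9.07-fold above EC359. Vorinostat alone gave 5.25-fold and EC359 alone 1.79-fold, the latter below the fold threshold. SLC2A14, a near-identical copy with which SLC2A3 can share reads, was listed at 1.07 CPM or less in every library.

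The widely expressed transporter SLC2A1 (GLUT1) had another order. It stood at 164 CPM in both vehicle libraries, 269 and 327 with EC359, 225 and 223 with vorinostat, and 256 and 262 with the combination. It rose in all 3 treatments by less than the fold threshold, with log2 fold changes of 0.86 ± 0.10 after EC359 (edgeR adjusted p = 6.23e-04), 0.45 ± 0.10 after vorinostat and 0.66 ± 0.10 after both. The lactate carrier SLC16A1 (MCT1) lay at 224 and 223 CPM with vehicle and at 384 and 342 with the combination, where it rose by 0.70 ± 0.09 on the log2 scale (edgeR adjusted p = 1.09e-04). Neither drug alone moved SLC16A1 past the test. The lactate exporter SLC16A3 (MCT4) was scarce, between 2.33 and 8.01 CPM in all libraries, and passed the test in no comparison of the main fit. Its log2 fold change with EC359 was 1.31 ± 0.33 (edgeR adjusted p = 0.0282). It was called higher there by DESeq2 (1.32, DESeq2 adjusted p = 0.00669) and with no filter on low counts (1.33, edgeR adjusted p = 0.00989).

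Hexokinases trap glucose in the cell by phosphorylating it, and HK2, the inducible form of many tumours, was among the members most affected by EC359. HK2 measured 65.1 and 63.0 CPM with vehicle, 236 and 234 with EC359, 120 and 127 with vorinostat, and 168 and 160 with the combination. Its level was therefore highest with EC359 alone, and the combination lay between the 2 single drugs. EC359 raised HK2 3.67-fold (log2 fold change 1.88 ± 0.09, edgeR adjusted p = 3.13e-06), with a log2 value of 1.88 or 1.89 when either EC359 library was left out. The combination was 2.56-fold above vehicle and fell below EC359 by 0.52 ± 0.08 on the log2 scale (edgeR adjusted p = 5.16e-04).

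HK1, the constitutive hexokinase, measured 141 and 134 CPM with vehicle, 311 and 241 with EC359, 237 and 248 with vorinostat, and 245 and 259 with the combination. All 3 treated groups lay above vehicle. EC359 gave a log2 fold change of 1.01 ± 0.12 (edgeR adjusted p = 6.33e-04), just past the fold threshold, and the value was 0.82 without EC359 replicate 1 and 1.19 without EC359 replicate 2. The call was also lost without vehicle replicate 1 or 2 (edgeR adjusted p = 0.0107 and 0.0145), with libraries scaled by total counts (log2 fold change 0.99), and in a fit on the compared groups alone (edgeR adjusted p = 0.0170). Glucose-6-phosphate isomerase (GPI) fell by 0.73 ± 0.11 with the combination and passed the test with neither drug alone.

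Phosphofructokinase commits sugar to glycolysis, and its isoforms went down with vorinostat. PFKL, the liver type, measured 189 and 194 CPM with vehicle, 145 and 183 with EC359, 93.4 and 103 with vorinostat, and 52.9 and 55.1 with the combination. Each group with vorinostat lay below both groups without it, and the combination was lowest. PFKL was called lower in the combination, 3.55-fold below vehicle (log2 fold change -1.83 ± 0.12, edgeR adjusted p = 1.96e-06), and the combination also fell below vorinostat by 0.86 ± 0.12.

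PFKM, the muscle type, measured 119 and 121 CPM with vehicle, 101 and 124 with EC359, 89.7 and 88.6 with vorinostat, and 51.2 and 56.8 with the combination. It followed the same order as PFKL, with a log2 fold change of -1.15 ± 0.12 for the combination against vehicle (edgeR adjusted p = 2.46e-05). PFKP, the platelet type, measured 322 and 311 CPM with vehicle, 447 and 377 with EC359, 194 and 187 with vorinostat, and 190 and 219 with the combination. It fell by 0.73 ± 0.11 with vorinostat and by 0.63 ± 0.11 with the combination, which overlapped each other. Against EC359 the combination fell by 1.01 ± 0.11, a call lost without EC359 replicate 1 (-0.90) or combination replicate 1 (-0.98).

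Aldolase cleaves the resulting bisphosphate into triose phosphates. The abundant form ALDOA measured 1777 and 1853 CPM with vehicle, 1898 and 2029 with EC359, 6857 and 6786 with vorinostat, and 4616 and 4491 with the combination. Vorinostat raised ALDOA 3.76-fold (log2 fold change 1.91 ± 0.07, edgeR adjusted p = 2.14e-07), and the combination stayed 2.51-fold above vehicle but 0.58 ± 0.07 on the log2 scale below vorinostat. ALDOC, the brain type, was nearly silent in the groups without vorinostat. It measured 0.283 and 0.654 CPM with vehicle, 0.536 and 0.761 with EC359, 9.67 and 11.0 with vorinostat, and 6.09 and 8.37 with the combination. With 20 counts in both vehicle libraries and 447 in both vorinostat libraries, the ratio was 22.2 (exact 95% counting interval 14.2 to 36.6), and the combination gave 15.4 (9.79 to 25.6). The fitted log2 fold changes of ALDOC, 4.45 and 3.93, became 5.15 and 4.64 without vehicle replicate 2.

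The PFKFB enzymes set the level of the sugar bisphosphate that is the main allosteric activator of phosphofructokinase. PFKFB3, which favours its synthesis, measured 96.8 and 109 CPM with vehicle, 188 and 219 with EC359, 222 and 243 with vorinostat, and 378 and 345 with the combination. The 4 groups did not overlap. PFKFB3 was called higher with vorinostat (log2 fold change 1.18 ± 0.11, edgeR adjusted p = 1.99e-05) and with the combination (1.81 ± 0.11), while its value of 0.99 ± 0.11 with EC359 fell just short of the fold threshold, which it passed at 1.00 when any 1 vorinostat or combination library was left out and at 1.08 and 1.10 without vehicle replicate 2 or EC359 replicate 1. PFKFB4, a HIF-inducible relative, measured 26.5 and 25.9 CPM with vehicle, 29.6 and 33.8 with EC359, 70.8 and 74.7 with vorinostat, and 51.5 and 47.0 with the combination. It rose with vorinostat by 1.47 ± 0.11 (edgeR adjusted p = 4.85e-06) and fell from there with the combination by 0.56 ± 0.11. PFKFB2, between 26.6 and 39.7 CPM, passed the test in no comparison.

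**Figure D2:**
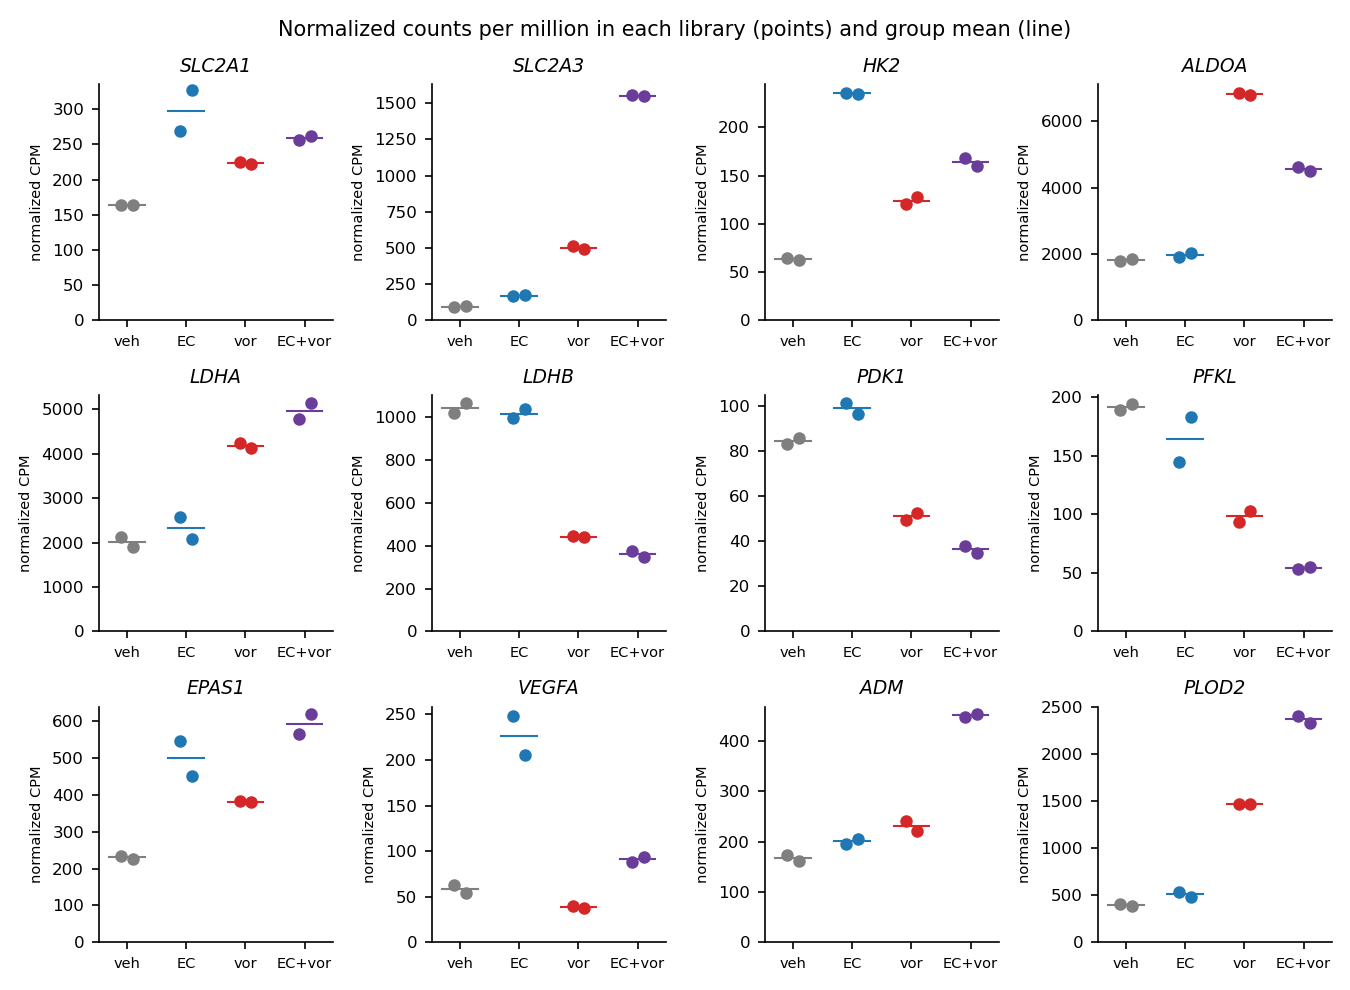
Normalized CPM (vertical axis, linear from 0) of 12 members in each library (points) and the group mean (line), for vehicle (veh), EC359 (EC), vorinostat (vor) and the combination (EC+vor). SLC2A3, ADM and PLOD2 were highest with the combination, HK2 and VEGFA with EC359 alone and ALDOA with vorinostat alone, while LDHB, PDK1 and PFKL were lowest with the combination.

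Of the 6 enzymes of lower glycolysis, 1 was called in any comparison. Triose-phosphate isomerase (TPI1) measured 637 and 711 CPM with vehicle, 481 and 647 with EC359, 1980 and 1969 with vorinostat, and 1405 and 1282 with the combination. It rose 2.93-fold with vorinostat (log2 fold change 1.55 ± 0.13, edgeR adjusted p = 1.07e-05) and was at 1.00 ± 0.13 with the combination, just under the fold threshold. GAPDH, which makes the first energy-rich intermediate and is a common reference gene for qPCR, measured 3742 and 3826 CPM with vehicle, 3812 and 4147 with EC359, 6693 and 6475 with vorinostat, and 4909 and 4926 with the combination. It rose by 0.80 ± 0.07 with vorinostat (edgeR adjusted p = 1.23e-05) and by 0.38 ± 0.07 with the combination, below the fold threshold in both. ACTB, another common reference gene and not a member, fell by 1.06 ± 0.09 with the combination (edgeR adjusted p = 5.72e-06).

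Phosphoglycerate kinase (PGK1) rose by 0.61 ± 0.12 with vorinostat and pyruvate kinase (listed as PKM2) by 0.85 ± 0.12. With the combination PKM2 rose by 0.50 ± 0.12, whereas PGK1 was at 0.13 ± 0.12. Enolase (ENO1) fell by 0.60 ± 0.09 with the combination (edgeR adjusted p = 3.13e-04), with -0.03 ± 0.09 for vorinostat alone. The phosphoglycerate mutase PGAM1 passed the test in no comparison, and its 2 EC359 libraries disagreed, at 150 and 47.5 CPM. Without EC359 replicate 2, which had the lower value, PGAM1 was called higher with EC359 than with vehicle (log2 fold change 1.24) and lower in the combination than with EC359 (-1.81), and its interaction passed at an edgeR adjusted p of 0.00647. PGAM1 has 13 annotated pseudogene copies, GAPDH 65 and BNIP3 44, with which reads can be shared, so their levels are less certain. The 16 enzymes from hexokinase to lactate dehydrogenase took 1.85% and 1.88% of all counts with vehicle, 1.84% and 1.96% with EC359, 3.20% and 3.15% with vorinostat, and 2.31% and 2.37% with the combination. The vorinostat libraries gave the largest share, and the combination lay between vorinostat and vehicle.

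Lactate dehydrogenase interconverts pyruvate and lactate, and its 2 subunits moved in opposite directions. LDHA, the subunit associated with lactate production, measured 2115 and 1906 CPM with vehicle, 2574 and 2075 with EC359, 4236 and 4118 with vorinostat, and 4778 and 5149 with the combination. LDHB, the heart-type subunit, measured 1018 and 1064 CPM with vehicle, 994 and 1036 with EC359, 445 and 439 with vorinostat, and 377 and 347 with the combination. For both genes the libraries with vorinostat were separated from those without it. Vorinostat raised LDHA 2.08-fold (log2 fold change 1.06 ± 0.11, edgeR adjusted p = 3.11e-05), a call lost without vehicle replicate 2 (0.97), and lowered LDHB 2.35-fold (log2 fold change -1.24 ± 0.08, edgeR adjusted p = 2.16e-06). With the combination the values were 1.30 ± 0.11 for LDHA and -1.52 ± 0.08 for LDHB. With EC359 alone they were 0.21 ± 0.11 and -0.04 ± 0.08, and neither passed the test.

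Pyruvate dehydrogenase kinases hold pyruvate back from the mitochondrial citric acid cycle. PDK1, a HIF target, measured 83.1 and 85.8 CPM with vehicle, 101 and 96.5 with EC359, 49.4 and 52.7 with vorinostat, and 37.9 and 35.0 with the combination. It was called lower with the combination (log2 fold change -1.21 ± 0.10, edgeR adjusted p = 5.10e-06) and fell by 0.73 ± 0.09 with vorinostat. PDK3 went the other way with vorinostat, rising by 0.61 ± 0.09 (edgeR adjusted p = 3.66e-04), and was at 0.16 ± 0.09 with the combination.

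Within families, levels were compared as reads per kilobase of the gene's union of exons. SLC2A3 made up 34.5% and 34.8% of the SLC2A1 and SLC2A3 total with vehicle, 36.0% and 33.0% with EC359, 67.5% and 66.9% with vorinostat, and 84.7% and 84.4% with the combination. SLC2A3 thus replaced SLC2A1 as the more abundant of the pair wherever vorinostat was present. LDHA made up 50.7% and 47.0% of the LDH total with vehicle, 56.2% and 49.8% with EC359, 82.5% and 82.3% with vorinostat, and 86.3% and 88.0% with the combination. PDK3 made up 37.6% and 36.2% of its pair with vehicle, 26.2% and 29.1% with EC359, 60.0% and 59.3% with vorinostat, and 59.5% and 60.8% with the combination. HK2 made up 35.0% and 35.3% of the hexokinase total with vehicle and 46.8% and 53.1% with EC359. EPAS1 made up 32.3% and 33.2% of the 2 HIF alpha subunits with vehicle, 51.6% and 57.6% with EC359, 33.5% and 33.0% with vorinostat, and 48.4% and 49.7% with the combination. The leading member of the family differed between vehicle and the combination in 3 of the 12 families compared, SLC2A, LDH and PDK. With the length of the longest transcript in place of the exon union, they were SLC2A, PDK and the HIF alpha subunits.

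**Figure D3:**
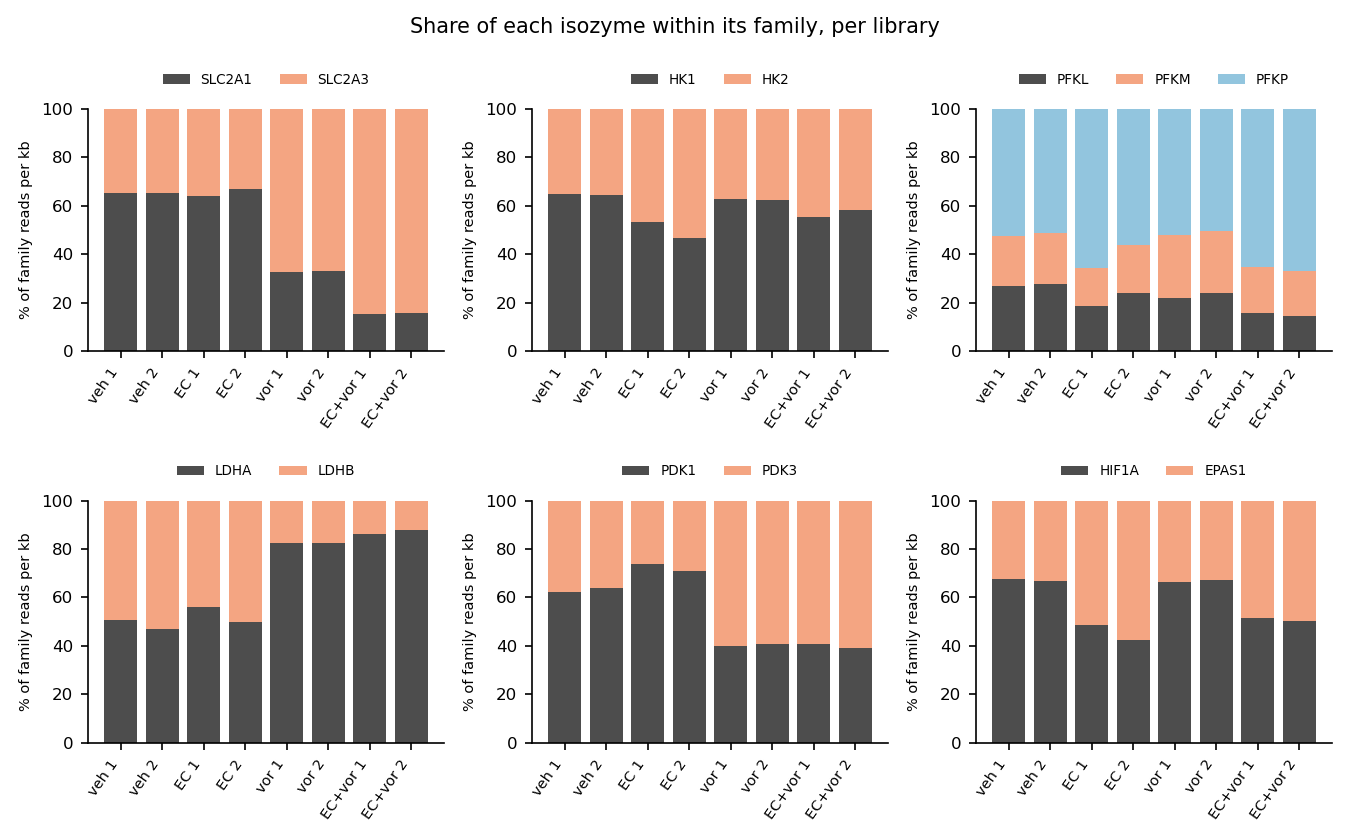
Share of each member in its family (vertical axis, percent of reads per kilobase of exon union) in each library, for 6 families. The SLC2A3, LDHA and PDK3 shares were larger in the 4 libraries with vorinostat than in the 4 without it, and the EPAS1 share was larger in the 4 libraries with EC359.

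Among the HIF subunits, EPAS1 responded to both drugs. EPAS1 measured 235 and 227 CPM with vehicle, 547 and 450 with EC359, 382 and 380 with vorinostat, and 565 and 619 with the combination. Its log2 fold change was 1.11 ± 0.11 with EC359 (edgeR adjusted p = 1.61e-04), 0.72 ± 0.11 with vorinostat and 1.36 ± 0.11 with the combination. The EC359 value was 0.97 without EC359 replicate 1, under the fold threshold, and 1.25 without EC359 replicate 2. HIF1A measured 348 and 322 CPM with vehicle, 362 and 234 with EC359, 536 and 546 with vorinostat, and 426 and 442 with the combination, and rose with vorinostat by 0.69 ± 0.17 (edgeR adjusted p = 0.00559). Their partner ARNT rose by 0.51 ± 0.13 with vorinostat and by 0.91 ± 0.13 with the combination.

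EGLN1, the main prolyl hydroxylase in most cells, lay between 120 and 168 CPM and passed the test only against EC359, where the combination fell by 0.38 ± 0.10 (edgeR adjusted p = 0.00661). EGLN3, a hydroxylase that HIF itself induces, was near zero without vorinostat, with 1 and 2 counts in the vehicle libraries and 0 and 1 in the EC359 libraries. It had 18 and 28 counts with vorinostat and 21 and 10 with the combination, and the count ratio to vehicle was 15.2 (exact 95% counting interval 4.89 to 76.4) and 11.3 (3.51 to 57.5). EGLN3 was called higher in both, and both calls were lost in several fits that left out 1 library, at edgeR adjusted p between 0.0128 and 0.0531. The fitted log2 fold change of EGLN3 with the combination, 3.39, became 2.71 without combination replicate 1.

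Of the 8 members grouped here as HIF targets, 7 were tested and 5 were called higher with the combination, beside 19.5% of all genes. Genes that HIF can switch on also stand in the other groups, where they moved both ways. With the combination PLOD2 was called higher and PDK1 lower, and SLC2A1 was not called. VEGFA, the main angiogenic growth factor, measured 62.7 and 54.3 CPM with vehicle, 248 and 205 with EC359, 39.7 and 37.2 with vorinostat, and 88.4 and 94.1 with the combination. Its level was highest with EC359 alone and lowest with vorinostat alone. EC359 raised VEGFA 3.87-fold (log2 fold change 1.95 ± 0.12, edgeR adjusted p = 1.44e-05), with 1.81 and 2.09 when EC359 replicate 1 or 2 was left out, while with vorinostat it fell by 0.60 ± 0.12 (edgeR adjusted p = 0.00206). The combination was 2.37-fold above vorinostat and 2.48-fold below EC359.

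ADM, the vasodilator peptide adrenomedullin, measured 173 and 161 CPM with vehicle, 195 and 206 with EC359, 240 and 221 with vorinostat, and 447 and 454 with the combination. It was called with the combination alone among the 3 treatments against vehicle (log2 fold change 1.43 ± 0.09, edgeR adjusted p = 1.19e-06), and rose by 0.47 ± 0.09 with vorinostat. NDRG1, a stress-responsive growth regulator, measured 0.802 and 0.654 CPM with vehicle, 1.52 and 0.609 with EC359, 5.96 and 7.27 with vorinostat, and 15.9 and 15.6 with the combination. The combination gave 616 counts against 31 with vehicle, a ratio of 21.6 (exact 95% counting interval 15.1 to 32.1). The step from vorinostat to the combination was called (log2 fold change 1.25 ± 0.26, edgeR adjusted p = 0.00835), and the call was lost whenever 1 vehicle, vorinostat or combination library was left out, at edgeR adjusted p between 0.0193 and 0.105, and when libraries were scaled by total counts (0.0103).

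The BCL2-family proteins BNIP3 and BNIP3L (NIX) direct the removal of mitochondria by autophagy, and they differed in their response. BNIP3 measured 74.5 and 82.1 CPM with vehicle, 69.7 and 95.9 with EC359, 268 and 259 with vorinostat, and 187 and 158 with the combination, so that it peaked with vorinostat alone. BNIP3L measured 241 and 233 CPM with vehicle, 423 and 312 with EC359, 298 and 288 with vorinostat, and 484 and 495 with the combination, where it was highest. BNIP3 was called with vorinostat (log2 fold change 1.75 ± 0.15, edgeR adjusted p = 1.21e-05) and the combination (1.14 ± 0.15, or 0.96 without combination replicate 1). BNIP3L was called with the combination (1.04 ± 0.13), a value of 0.96 when libraries were scaled by total counts, of 0.98 without combination replicate 2, and of 0.99 to 1.00, just under the threshold, without either vorinostat library.

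ANKRD37, a small ankyrin-repeat protein, measured 1.79 and 2.33 CPM with vehicle, 2.72 and 5.02 with EC359, 7.09 and 8.24 with vorinostat, and 11.1 and 9.60 with the combination. It was called higher with vorinostat and with the combination (log2 fold change 2.32 ± 0.30, edgeR adjusted p = 1.08e-04). Of its 2253 exonic bases, 909 overlap exons of UFSP2 on the opposite strand, and since no source used here gives the strand setting of the counts, reads of the 2 genes cannot be told apart. Shorter overlaps with an antisense gene, of 14 to 516 bases, concern SLC16A3, PFKM, PFKFB2, TPI1, ENO1, BNIP3L and LOX. The carbonic anhydrase CA12 measured 5.90 and 5.51 CPM with vehicle, 5.19 and 2.69 with EC359, 9.56 and 9.48 with vorinostat, and 9.16 and 12.2 with the combination, and was called in the combination against EC359 (1.42 ± 0.28), a call lost without combination replicate 2. CA9, a carbonic anhydrase that is widely used as a marker of hypoxic tumour, had 1 count in each vehicle library, 0 in the EC359 and vorinostat libraries, and 4 and 2 with the combination, and was not tested.

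The last group acts on collagen, a process that HIF promotes. PLOD2, the lysyl hydroxylase that prepares collagen for stable cross-links, measured 409 and 392 CPM with vehicle, 539 and 484 with EC359, 1472 in both vorinostat libraries, and 2406 and 2334 with the combination. It rose 5.92-fold with the combination (log2 fold change 2.57 ± 0.08, edgeR adjusted p = 5.33e-08) and 3.68-fold with vorinostat. LOX, the secreted oxidase that forms those cross-links, measured 1948 and 1838 CPM with vehicle, 2068 and 1732 with EC359, 690 and 715 with vorinostat, and 1166 and 1129 with the combination. LOX fell with vorinostat by 1.43 ± 0.10 (edgeR adjusted p = 2.58e-06), and the combination was 1.63-fold above vorinostat and 1.65-fold below vehicle. The prolyl 4-hydroxylase subunits P4HA1 and P4HA2 rose with vorinostat by 0.76 ± 0.08 and 0.34 ± 0.09, below the fold threshold. The histone demethylase KDM4D lay between 4.87 and 8.36 CPM and passed the test in no comparison.

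Against vorinostat alone, the combination had 3 members called higher (SLC2A3, VEGFA and NDRG1) and 0 lower, beside 3.37% of all genes called higher and 0.876% lower, and DESeq2 gave the same counts. Without the fold threshold 11 members rose and 9 fell by edgeR (14 and 16 at an unadjusted p under 0.05), and the 9 that fell were ALDOA, GAPDH, ENO1, PFKFB4, PDK1, PDK3, P4HA1, PFKL and PFKM. By the same rule 1877 of all 13694 genes passed. Against EC359 alone, the combination had 12 members called higher and 6 lower, beside 19.8% and 13.9% of all genes. The 6 called lower were PFKL, PFKM, PFKP, LDHB, PDK1 and VEGFA.

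Whether EC359 acted differently when vorinostat was present was tested as the interaction, the log2 change with EC359 in the presence of vorinostat minus that in its absence. Of the 42 members, 1 had an interaction above 0 and 2 below, beside 1.62% of all genes above and 0.482% below at an adjusted p under 0.01. HK2 changed by 1.88 without vorinostat and by 0.40 with it, an interaction of -1.47 ± 0.12 (edgeR adjusted p = 3.02e-04). SLC2A3 changed by 0.84 and 1.63, an interaction of 0.79 ± 0.11 (edgeR adjusted p = 0.00407). ALDOA was at 0.11 without vorinostat, where it did not pass the test, and fell by 0.58 with it, an interaction of -0.70 ± 0.10 (edgeR adjusted p = 0.00463). The HK2 interaction was found in 15 of 15 other fits. Those of SLC2A3 and ALDOA were lost whenever 1 vehicle, vorinostat or combination library was left out, at edgeR adjusted p between 0.0276 and 0.0692, although the log2 values stayed between 0.71 and 0.79 for SLC2A3 and between -0.77 and -0.67 for ALDOA in those fits. Without EC359 replicate 1, and without EC359 replicate 2, more members passed, and so did more of all genes. These fits gave interactions of -0.76 and -1.13 for HK1, -0.78 and -0.51 for SLC2A1, and -0.68 and -0.76 for PDK1. For PFKFB4 they were -0.93 and -0.75, for ADM 0.66 and 0.74, and for LOX 0.83 and 0.57. None of these members passed in the main edgeR fit with all 8 libraries, whereas each of them passed with DESeq2 on the same libraries. DESeq2 also passed more of all genes, 696 against 288 in the main fit.

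**Figure D4:**
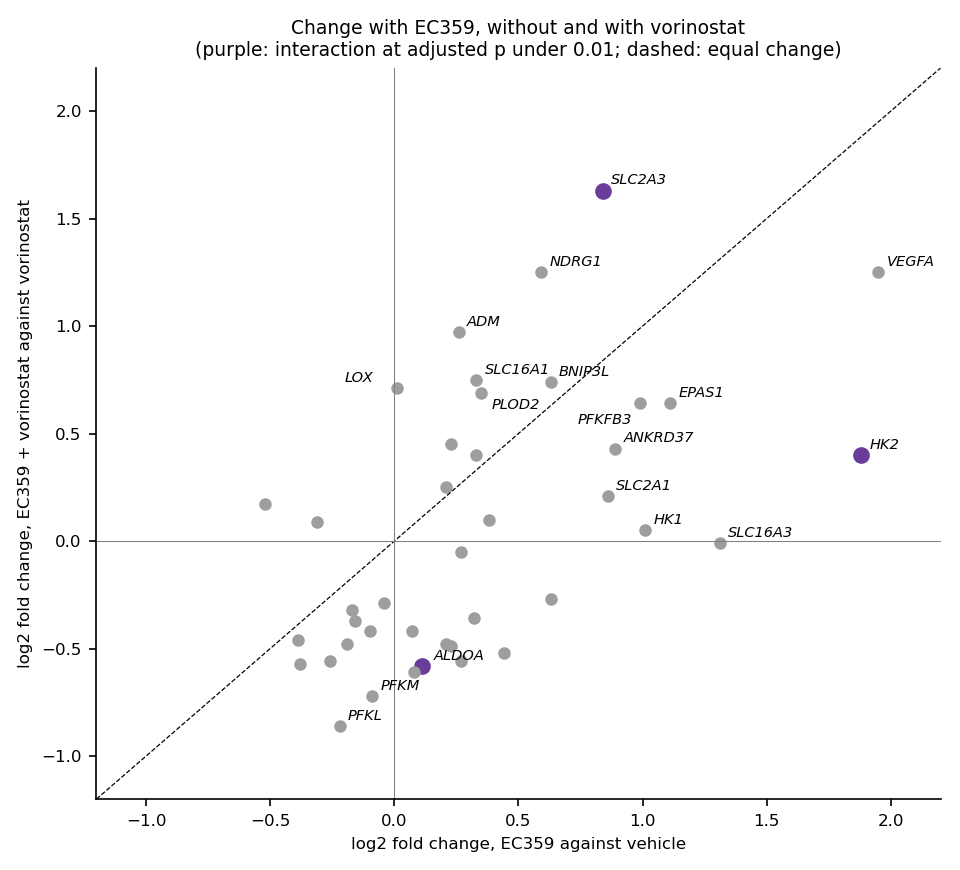
Log2 fold change with EC359 in the absence of vorinostat (horizontal axis) and in its presence (vertical axis) for 41 members, EGLN3 being left out for its few counts; the 2 axes share no library, and purple points had an interaction. HK2 lies to the right of the dashed line of equal change, SLC2A3 above it, and ALDOA near 0 on the horizontal axis and at -0.58 on the vertical axis.

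Other genes of the same pathways were described from lists by function. Of 47 further genes of glucose metabolism, 30 were tested, and 12 were called higher and 3 lower with the combination, and 12 and 2 with vorinostat, while 3 were called with EC359, each higher. In all, 50% of that list were called with the combination, 46.7% with vorinostat and 10% with EC359, beside 34.8%, 30.1% and 3.67% of all genes. Of 51 further hypoxia response genes, 44 were tested, and 10 were called higher and 7 lower with the combination, 13 and 6 with vorinostat, and 2 and 3 with EC359. For these the shares called were 38.6% with the combination, near the 34.8% of all genes, 43.2% with vorinostat and 11.4% with EC359. The median log2 fold change with the combination was 0.50 and 0.53 in the 2 lists, beside 0.07 over all genes.

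TXNIP, which restrains glucose uptake, was at 53.0 and 53.8 CPM with vehicle, 150.5 and 182 with EC359, 926.5 and 919.5 with vorinostat, and 1605 and 1471 with the combination (log2 fold change against vehicle 4.85, edgeR adjusted p = 1.78e-08). SLC2A4, the insulin-responsive glucose transporter, was at most 1.03 CPM without vorinostat and between 29.8 and 33.0 CPM with it. PGM2L1, which makes a glucose bisphosphate, rose by 3.24 on the log2 scale with the combination. PCK1, a gluconeogenic enzyme, had 0 counts with vehicle and was at least 33-fold higher with the combination, reckoned against 3 counts over the group. The HIF-responsive secreted factor ANGPTL4 rose by 6.08 on the log2 scale with the combination. It was at 21.1 and 22.5 CPM with vehicle, 240 and 314.5 with EC359, 150 and 156 with vorinostat, and 1521 and 1433 with the combination. LOXL1, a relative of LOX, fell by 3.44 with the combination, and the carbonic anhydrase CA2 had 0 counts with vehicle and was at least 10.2-fold higher with the combination on the same reckoning.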

How the data were processed

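RNA of BT-549 cells was sequenced as 50-base single-end reads. Per the labels and the submitters' processing notes, the authors aligned reads to hg19 with TopHat2 2.0.8b and counted them on RefSeq genes with HTSeq (strand setting not given in the sources used here), and deposited raw counts per gene. Summary lines that name no gene were left out; of uniquely aligned reads, between 85.2% and 88.1% fell on genes. Groups came from the treatment labels.

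The counts as deposited were tested with edgeR 4.0.16 (filterByExpr, TMM factors 0.955 to 1.03, quasi-likelihood test, 1 mean per group over all 8 libraries, R 4.3.3), with Benjamini-Hochberg adjustment over 13694 genes and a call at adjusted p under 0.01 and log2 fold change over 1. DESeq2 1.42.0, other scalings, filters, a replicate block and leaving out each library were alternatives. In counts simulated for vorinostat against vehicle on 13694 genes, of which 13363 passed the filter, 99.0% of genes changed by 3 on the log2 scale and 91.8% of those changed by 1.5 were recovered. For a simulated interaction the shares were 92.9% and 84.8%. The simulation gave all genes and groups the same dispersion, 0.0135, whereas the real spread differed between groups. Replicates of no group agreed within sampling noise (chi-square per degree of freedom 2.27 to 51.7). Gene lengths and pseudogene copies came from GENCODE on GRCh37, the build of the counts, and promoter windows from RefSeq on GRCh38.p14. Members called in any comparison were named with every library, and of the other lists the 4 called genes with the largest change in the combination, 1 of which is not reported here. The members and lists were chosen with earlier results of these data known. Intervals on counts cover counting error only.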

Additional observations from a re-analysis of the deposited data

Results flagged for a closer look

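The change with EC359 differed between cells with and without vorinostat in 3 of 42 members (7.14%), beside 2.1% of all genes. The test was that of the difference itself (edgeR's quasi-likelihood F test, Benjamini-Hochberg adjustment over all genes). For HK2 the difference was -1.47 ± 0.12 on the log2 scale (adjusted p = 3.02e-04), with both EC359 libraries above both vehicle libraries and both combination libraries above both vorinostat libraries. For ALDOA it was -0.70 ± 0.10 (adjusted p = 0.00463), and for SLC2A3 0.79 ± 0.11 (adjusted p = 0.00407). The HK2 difference was found in 15 of 15 other fits, and those of ALDOA and SLC2A3 in 8 of 15 each. Groups of 2 libraries are too small to look for single outlying samples.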

How the results depend on the processing

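The counts of called members changed by at most 1.5 times under other size factors, scaling by total counts, other filters on low counts, DESeq2, fits on the compared groups only, and a looser adjusted p of 0.05 in the 5 comparisons between groups. Without the fold threshold they became 7 for EC359, 32 for vorinostat, 32 for the combination, 20 for the combination against vorinostat and 29 for the combination against EC359. Over all 13694 genes the same rule gave 1071, 7130, 7718, 1877 and 7642. With 1 library left out at a time they ranged from 3 to 5, 12 to 14, 16 to 18, 2 to 3 and 14 to 18. A lone remaining library was assumed to vary like the other groups. The number of members with an interaction was less stable. It was 5 with total counts, 9 with no filter on low counts, 14 with DESeq2 and 13 at an adjusted p under 0.05. Over all genes these fits gave 274, 430, 696 and 925, beside 288 in the main fit. Leaving out 1 library of vehicle, vorinostat or the combination lowered the number, and leaving out either EC359 library raised it. Both held for the members and for all genes. The cause was not tested. The promoter share was 40.5% for ACGTG alone. No result that passed the test changed direction.

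The labels do not say whether the replicate numbers pair the samples. Deviations of same-numbered libraries correlated between -0.173 and 0.231, which does not settle it. In a fit that took the replicate number as a block, 4, 14, 18, 2 and 18 members were called and 1 had an interaction. Without the block 4, 14, 18, 3 and 18 were called and 3 had an interaction. The number with an interaction also fell over all genes, to 189 with the block from 288 without it. The block lost the calls of EGLN3 in the combination against vehicle (edgeR adjusted p = 0.0102) and of NDRG1 in the combination against vorinostat (0.01352), and the interactions of SLC2A3 (0.0112) and ALDOA (0.0115), and TPI1 gained a call in the combination against vehicle. A block with crossed pairing, chosen after seeing the data, gave 8 members with an interaction. Over all genes it gave 477, beside 288 without a block.

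The 2 libraries per group leave little room to estimate the spread, and genes with few counts, such as EGLN3, NDRG1, ALDOC and CA12, carry wide intervals.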

Other observations

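In 4 members the libraries with EC359 lay above those without it in the absence of vorinostat and below them in its presence. How many of all genes have this order was not counted, so the number is a description and not a result about the members. ALDOA gave log2 values of 0.11 and -0.58, PFKFB4 0.27 and -0.56, PDK1 0.23 and -0.49, and PKM2 0.32 and -0.36. None of the 4 passed the test in the absence of vorinostat, and in its presence ALDOA, PFKFB4 and PDK1 did. In the main fit only ALDOA among these 4 passed for the difference itself (edgeR adjusted p = 0.00463), while PFKFB4 was at 0.0153, PDK1 at 0.0161 and PKM2 at 0.0446. That contrast depended on the fit. All 4 passed with DESeq2 and with no filter on low counts, where 696 and 430 of all genes passed. With the replicate number as a block none of the 4 did, and 189 of all genes passed.

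In the list of further hypoxia response genes, 4 of 44 had an interaction above 0 and 1 below, beside 1.62% and 0.482% of all genes. The 4 were CITED2, STC2, EDN1 and C7orf68 (0.83 on the log2 scale). CITED2, a competitor of HIF for its coactivators, was at 609 and 560 CPM with vehicle, 370.5 and 228 with EC359, 1004 and 958 with vorinostat, and 1871 and 2390 with the combination. STC2, a secreted glycoprotein, was at 773 and 803 CPM with vehicle, 613 and 721 with EC359, 213 in both vorinostat libraries, and 581 and 541 with the combination. The vasoconstrictor precursor EDN1 was at 76.3 and 73.5 CPM with vehicle, 31.9 and 26.5 with EC359, 6.79 and 5.91 with vorinostat, and 9.46 and 9.39 with the combination. The interaction below 0 was that of PYGL, a glycogen phosphorylase, at -0.78, with 89.9 and 88.1 CPM with vehicle, 174 and 166 with EC359, 125 and 130.5 with vorinostat, and 143 and 141.5 with the combination. These genes were chosen for this paragraph after their values were seen.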
